A study of Mus musculus with 14 samples.

Results

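Mitosis, spindle and kinetochore genes were described as a set of 48, chosen by gene name, and all 48 were found among the 35275 genes of the deposited expression table. The set covers the transcription factors and cyclin-dependent kinase switch of mitotic entry, mitotic kinases, the kinetochore, the spindle checkpoint, the machinery of anaphase, spindle motors and cytokinesis. mRNA was measured by RNA sequencing of KMF cells, a mouse ovarian tumor line recovered from ascites of C57Bl6 mice bearing ID8 cells, grown for 5 days without anchorage as tumorspheres. The study asked how FAK, a cytoplasmic tyrosine kinase encoded by Ptk2, and β-catenin act on gene expression in these tumorspheres.

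There were 5 lines and 14 samples. Parental KMF cells are wild type for FAK (n = 3). FAK KO is KT13, a single FAK-/- clone made with CRISPR/Cas9 (n = 3). FAK-WT is KT13 carrying lentiviral GFP-FAK (n = 3), and FAK-R454 is KT13 carrying GFP-FAK with the kinase-inactivating R454 substitution (n = 2), both driven by a CMV promoter. A further FAK-R454 replicate described in the methods was not analysed here. β-catenin ΔGSK is KT13 expressing an active β-catenin that lacks its GSK3β phosphorylation sites, from a retroviral vector that also expresses GFP (n = 3). All lines but KMF thus carry FAK-/- and come from that 1 clone, so FAK loss and other properties of the clone cannot be told apart in comparisons with KMF. The lines made from KT13 were also selected with puromycin or hygromycin and enriched by flow cytometry. No KT13 line with an empty vector is among the samples. In comparisons with FAK KO, the expressed protein and these steps therefore cannot be told apart. The KMF replicates were described as independent RNA samples taken at various passages. For the other lines the account of the sequencing names replicate RNA samples without saying whether these came from separate cultures, so p-values measure the spread between these samples, which may be technical. Levels are FPKM (fragments on a gene, scaled to its length and to the depth of the library), and each value is relative to the other mRNA of its library. In bulk samples such as these, fewer dividing cells and less mitotic mRNA per dividing cell cannot be told apart.

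When a cell enters mitosis, cyclin-bound CDK1 is released from the inhibitory kinases WEE1 and PKMYT1 by CDC25 phosphatases, and the kinetochore then attaches chromosomes to spindle microtubules. Until every chromosome is attached, the spindle checkpoint holds CDC20 away from the anaphase-promoting complex, which otherwise destroys cyclin B and securin and so sets separase free to cut cohesin. The mRNA of most of these proteins rises in G2 and M phase. Its level over the cell cycle is controlled by MYBL2, FOXM1 and the DREAM complex, at promoters that carry a cell-cycle homology region and CCAAT boxes.

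The promoters of 4 members are shown because their genes carry the main patterns of the data. Cdc20, Ccnb2 and Bub1b had the 3 largest rises of any member with active β-catenin over FAK KO. Racgap1 was the member with the largest rise in FAK-WT, although not once each chromosome was centred on its own median. Each sequence runs from 250 bases before to 50 bases after the RefSeq start site (build GRCm38.p6). They lie at chr4:118437294-118437593 (minus strand) for Cdc20, chr9:70421505-70421804 (minus strand) for Ccnb2, chr2:118597961-118598260 (plus strand) for Bub1b and chr15:99651607-99651906 (minus strand) for Racgap1. Capitals mark TTTGAA, the core of the cell-cycle homology region, and CCAAT, each on either strand, so that TTCAAA and ATTGG are the same motifs read from the opposite strand. Where the motifs adjoin they may share bases.
Cdc20: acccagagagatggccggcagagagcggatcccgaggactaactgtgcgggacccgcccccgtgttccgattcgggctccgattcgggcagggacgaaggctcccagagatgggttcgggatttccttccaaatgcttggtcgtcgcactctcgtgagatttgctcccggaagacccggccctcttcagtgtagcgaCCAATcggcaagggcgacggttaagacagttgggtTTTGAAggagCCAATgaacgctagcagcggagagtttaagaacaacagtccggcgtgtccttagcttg
Ccnb2: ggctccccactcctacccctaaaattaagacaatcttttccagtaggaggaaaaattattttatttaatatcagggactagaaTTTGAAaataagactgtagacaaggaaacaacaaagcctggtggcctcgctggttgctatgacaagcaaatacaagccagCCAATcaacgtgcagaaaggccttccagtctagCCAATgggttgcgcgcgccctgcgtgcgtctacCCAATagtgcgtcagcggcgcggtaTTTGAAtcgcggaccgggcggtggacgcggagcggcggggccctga
Bub1b: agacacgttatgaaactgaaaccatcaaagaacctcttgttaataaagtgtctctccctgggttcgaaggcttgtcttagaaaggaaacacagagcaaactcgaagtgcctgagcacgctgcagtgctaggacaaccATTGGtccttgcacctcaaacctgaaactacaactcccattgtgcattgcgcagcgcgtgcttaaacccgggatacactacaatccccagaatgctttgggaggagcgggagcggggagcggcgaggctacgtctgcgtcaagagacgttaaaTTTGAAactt
Racgap1: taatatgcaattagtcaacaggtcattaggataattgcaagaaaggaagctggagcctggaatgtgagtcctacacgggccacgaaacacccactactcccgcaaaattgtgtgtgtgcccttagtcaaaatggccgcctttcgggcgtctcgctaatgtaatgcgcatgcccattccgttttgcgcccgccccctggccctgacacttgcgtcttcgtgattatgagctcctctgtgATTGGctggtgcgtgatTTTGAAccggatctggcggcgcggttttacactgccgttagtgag

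The Cdc20 promoter held 1 TTTGAA, its first base at position -18 from the start site, and 2 CCAAT boxes, at -53 and -8. In Ccnb2, 3 CCAAT boxes at -87, -54 and -21 stood before a TTTGAA at 5, with another TTTGAA at -167. Bub1b held 1 CCAAT box, at -113, and 1 TTTGAA, at 41. Racgap1 likewise held 1 of each, at -12 and 6. RefSeq promoters were matched for 38 of the 48 members, as 41 sequences because some genes have more than 1 start site. Of the 41 windows, 4 (those of Cdca8, Kif2c, Kif4 and Pttg1) lay wholly inside the gene as the expression table places it, and the Pttg1 window is therefore not shown. TTTGAA was found in 29 of these 41 sequences (70.7%), against 17.9% of all 32851 mouse promoters of the same length. CCAAT was found in 73.2% against 37.4%, and both together in 61% against 6.95%. A TTTGAA with at least 2 CCAAT boxes was found in 41.5% of member promoters and in 2.09% of all promoters. These matches describe the sequences and are no evidence of binding. Aurkb, Ccna2, Cdc25c, Foxm1, Incenp, Kif20a, Pkmyt1, Spc24, Tpx2 and Wee1 are named only.

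Between 25390558 and 35289859 fragments on genes stood behind each library. Kif18a, the member with the fewest, had between 85 and 270 fragments per library and Top2a, with the most, between 3283 and 8103. A list of 11 markers of ovarian surface epithelium and mesothelium summed to 1069 to 1251 FPKM for FAK KO and 1175 to 1204 for KMF. Sums were 1570 to 1810 for FAK-WT, above all other samples, 1258 to 1295 for FAK-R454 and 1218 to 1400 for β-catenin ΔGSK. Of these genes, 6 had a mean above 1 FPKM, and Pax8 had a mean of at most 0.1 FPKM. Means were also at most 0.1 FPKM for the leukocyte genes Cd3e, Itgam and Ptprc, 2 of 4 endothelial genes (Cdh5 and Kdr) and 2 of 5 fibroblast genes (Lum and Pdgfrb). The fibroblast list summed to 90.01 to 127 FPKM for FAK KO, 41.8 to 49.8 for KMF, 123 to 145 for FAK-WT, 122 to 132 for FAK-R454 and 30.8 to 45.1 for β-catenin ΔGSK. The 4 endothelial genes summed to 17.8 to 19.2 FPKM for FAK KO, 29.6 to 29.9 for KMF, 17.5 to 18.6 for FAK-WT, 17.1 to 17.8 for FAK-R454 and 6.55 to 7.42 for β-catenin ΔGSK. Of the leukocyte list, Cd68, a lysosomal protein of macrophages, had a mean above 1 FPKM, with 2.79 to 3.15 for FAK KO, 2.55 to 3.62 for KMF, 6.596, 6.97 and 12.3 for FAK-WT, 4.25 and 4.34 for FAK-R454 and 1.05 to 1.86 for β-catenin ΔGSK. FAK-WT replicate 3 had the highest level of Cd68. The part of these markers in the results was not tested. Ptk2 mRNA was at 17.6 to 20.4 FPKM for FAK KO, 23.9 to 24.8 for KMF, 42.3 to 45.4 for FAK-WT, 59.2 and 65.5 for FAK-R454 and 15.1 to 15.9 for β-catenin ΔGSK. Transcripts of the disrupted alleles and of GFP-FAK are summed in these values.

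One library stood apart in these genes. Replicate 3 of FAK-WT was the lowest of its line in 46 of the 48 members, the others being Pttg1 and Wee1. Its median difference from the other FAK-WT replicates was -0.51 on the log2(FPKM + 0.1) scale over the members, -0.38 over 44 DNA replication genes, and -0.03 over all 11627 expressed genes. Of all expressed genes, 4.42% lay more than 1.5-fold from the other FAK-WT replicates in this library. In the other libraries this share was 1.02% to 2.96%. How many of all genes were lowest or highest of the line in FAK-WT replicate 3 was not counted. The median coefficient of variation of the members was 19.8% in FAK-WT, 5.26% in KMF, 6.82% in FAK KO, 4.18% in FAK-R454 and 7.32% with active β-catenin. Over all expressed genes it was 6.32% in FAK-WT, so the wide spread of the members was not shared by most genes of that line. Mki67, the gene of the proliferation antigen Ki-67, followed the members with 13.2, 11.6 and 7.897 FPKM in FAK-WT, against 7.52, 7.55 and 8.003 in FAK KO.

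**Figure D1:**
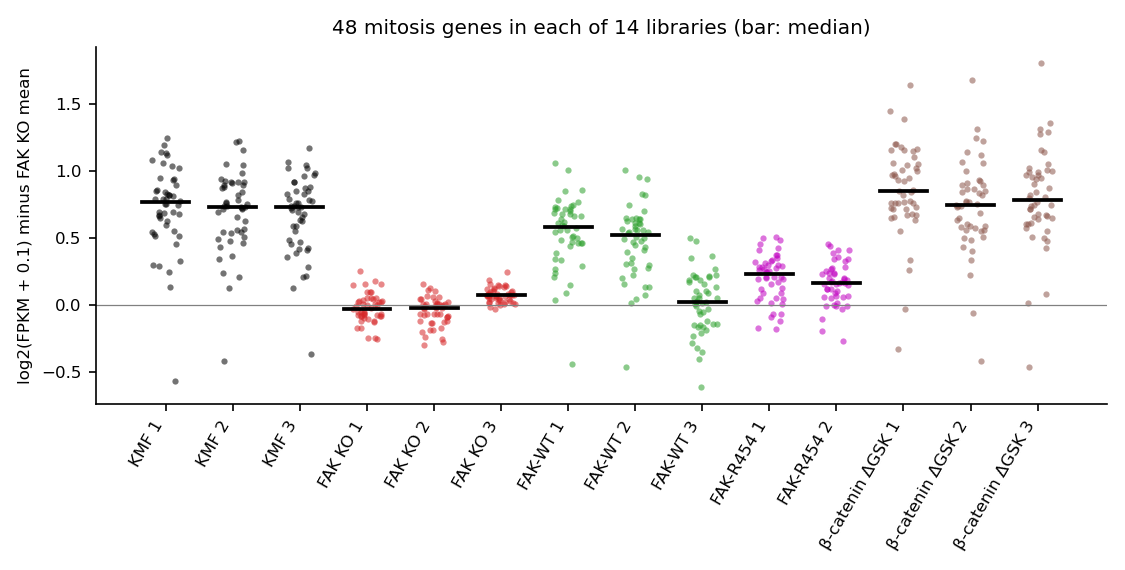
Each point is 1 of the 48 genes in 1 of the 14 libraries, given as log2(FPKM + 0.1) minus the mean of the FAK KO samples, and each bar is the median of the library. KMF medians lie at 0.73 to 0.77 and β-catenin ΔGSK medians at 0.75 to 0.85, FAK-R454 medians at 0.23 and 0.16, and FAK-WT replicate 3 at 0.02, below FAK-WT replicates 1 and 2 at 0.58 and 0.52.

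A list of 25 hypoxia-response genes, drawn up after the values were seen, moved the other way in that library. FAK-WT replicate 3 was the highest of its line in 22 of the 25. Vegfa, the angiogenic growth factor, was at 61.1, 74.8 and 157 FPKM in FAK-WT, and Ndufa4l2, a mitochondrial protein induced by HIF-1, was at 48.96, 68.1 and 181. The list's median relative to FAK KO was 1.48 in FAK-WT replicate 3, and 0.45, 0.32 and 0.87 in the KMF replicates, where the mitosis genes stood at 0.77, 0.73 and 0.73. Hypoxia medians were 0.314 and 0.544 in FAK-WT replicates 1 and 2, 0.397 and 0.465 in FAK-R454, and 0.761, 0.804 and 0.431 in the β-catenin ΔGSK replicates. The part of the hypoxia genes in the FAK-WT result was not tested. Counts of calls over the set in comparisons with FAK-WT, and those by role and list in FAK-WT over FAK KO, are given with and without replicate 3.

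**Figure D2:**
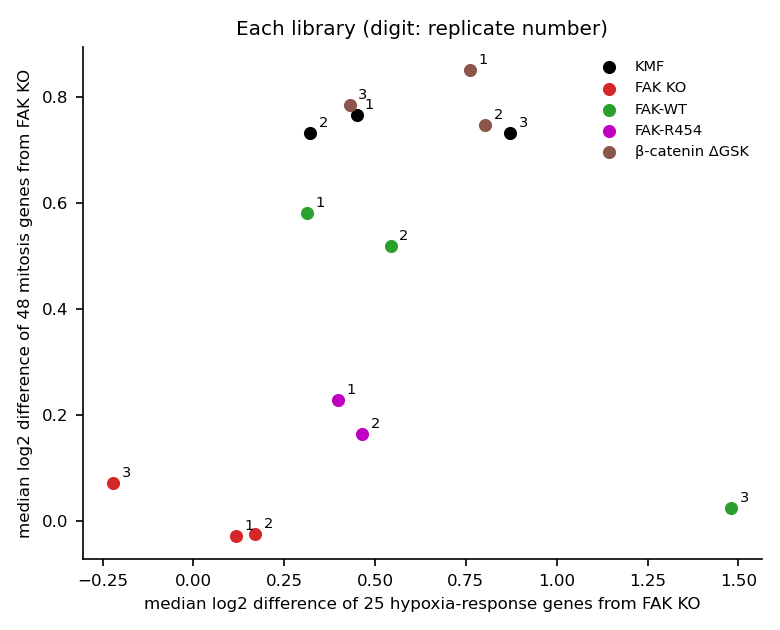
Each point is a library, with its replicate number. The x axis gives the median log2 difference of 25 hypoxia-response genes from the FAK KO mean and the y axis that of the 48 mitosis genes. FAK-WT replicate 3 stands alone at 1.48 and 0.02, and KMF replicate 3 lies at 0.87 and 0.73.

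Across lines the FAK KO clone had the lowest mean FPKM for 42 of the 48 genes. The highest mean was in β-catenin ΔGSK for 30 genes, in KMF for 17 and in FAK KO itself for 1, which was Pttg1. The order of the lines was not counted over all genes, so these counts have no share to stand beside. The 48 genes together summed to 550 ± 19.7 FPKM in FAK KO (SD, n = 3), 631 ± 10.6 in FAK-R454 (SD, n = 2), 719 ± 124 in FAK-WT, 876 ± 20.8 in KMF and 969 ± 30.5 with active β-catenin (SD, n = 3 each). In that order the samples of FAK-WT, at 578 to 809, overlapped those of FAK-R454, at 623 to 638, and no other neighbours overlapped. Bub1, Spc25, Mad2l1 and Kif18a had their lowest mean in FAK-R454, Bub3 in β-catenin ΔGSK and Pttg1 in KMF.

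**Figure D3:**
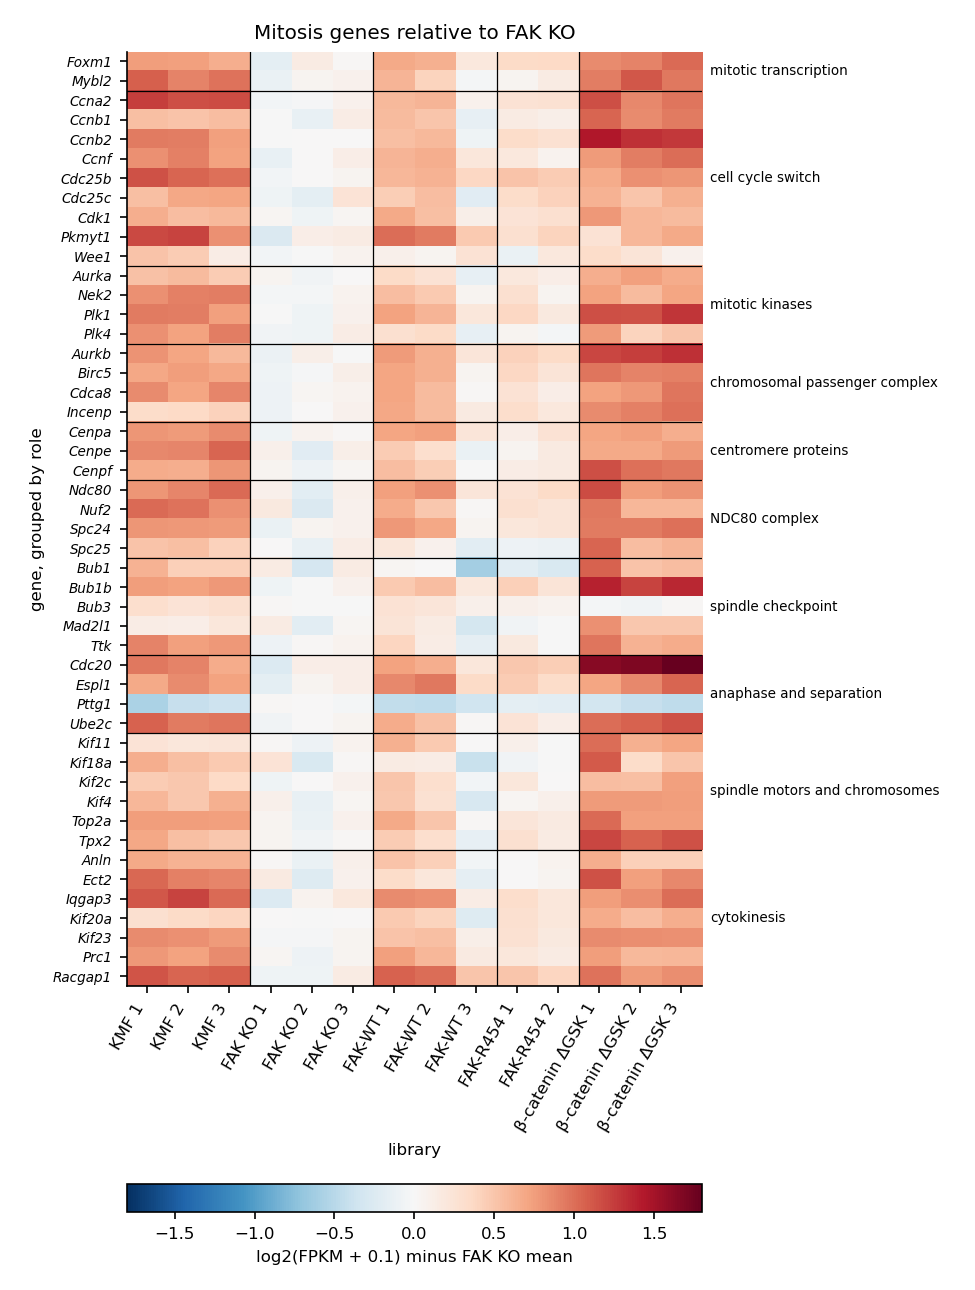
Rows are the 48 genes grouped by role and columns the 14 libraries, and color gives log2(FPKM + 0.1) minus the FAK KO mean, from blue (lower) to red (higher). KMF and β-catenin ΔGSK columns are red for nearly all genes, FAK-WT replicate 3 is pale where replicates 1 and 2 are red, Bub3 is pale in β-catenin ΔGSK, and Pttg1 is blue in every library outside FAK KO.

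Parental cells were compared with the FAK KO clone to ask what differs with FAK loss. In KMF, 45 of 47 tested members were called higher and 1 lower, against 23.1% of all 11893 genes tested called higher and 28.7% lower. A gene was called when its Benjamini-Hochberg adjusted p from limma was under 0.05, at any fold, and Kif18a was not tested because its mean stayed under 1 FPKM in both lines. The median log2 fold change of all 48 members was 0.75, a 1.68-fold difference, beside -0.05 for all genes tested. In 45 members every KMF sample lay above every FAK KO sample, which held for 27.4% of all genes, and in 1 member below (33.4%). A log2 fold change of 1 or more was reached by 5 members, Ccna2, Iqgap3, Racgap1, Pkmyt1 and Cdc25b, with 0 lower (3.97% and 4.04% of genes). Mad2l1 was not called.

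FAK-WT was compared with the FAK KO clone to ask which genes differ when FAK is put back. With all samples, 22 of 47 tested members were called higher in FAK-WT and 1 lower, against 15.6% and 25.2% of all 11841 genes. The median of all 48 members was 0.38 (1.30-fold), beside -0.08 for all genes. In 17 members all FAK-WT samples lay above all FAK KO samples (20.8% of genes), and in 1 member below (35.3%). No member reached a log2 fold change of 1 in size, against 2.91% of genes higher and 1.71% lower. Without FAK-WT replicate 3, 39 members were called higher and 1 lower (16.7% and 22.1% of genes) and the median of tested members was 0.56. Leaving out any 1 of the other samples gave fewer calls than all samples: 8 higher without FAK-WT replicate 1, 7 without FAK-WT replicate 2, and 7, 12 and 13 without FAK KO replicates 1, 2 and 3.

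**Figure D4:**
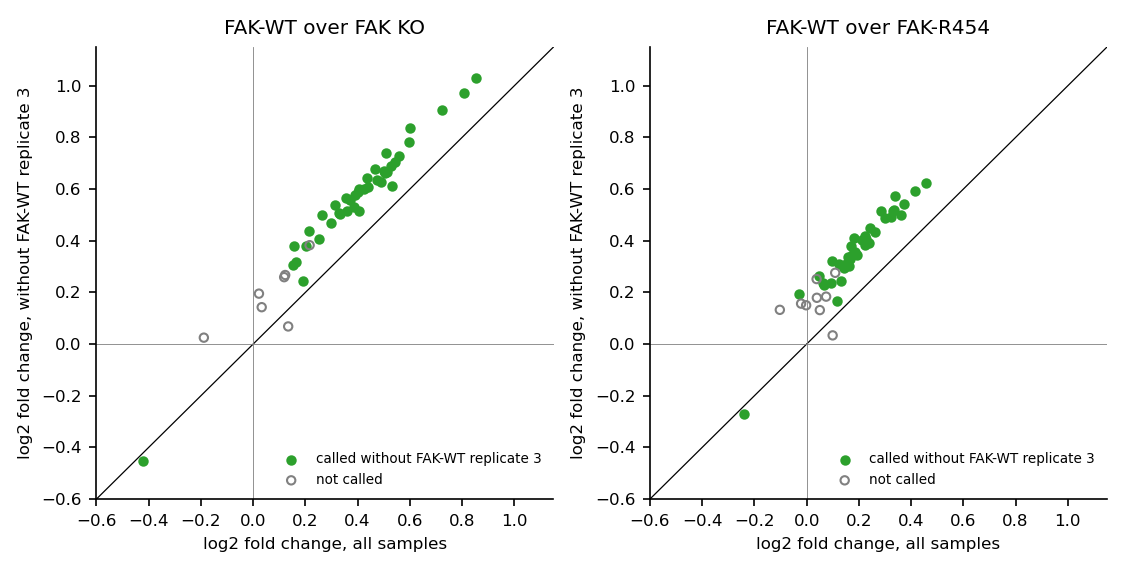
Each point is a member gene, with its log2 fold change from all samples on the x axis and without FAK-WT replicate 3 on the y axis, for FAK-WT over FAK KO and over FAK-R454. Green points were called without that replicate, and nearly all points lie above the line of equal values.

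Kinase-inactive FAK was compared with the same clone to ask which genes differ when FAK without its activity is put back. In FAK-R454, 10 of 47 tested members were called higher and 0 lower by limma, beside 9.78% and 9.89% of all 11818 genes, and 25 members had an unadjusted p under 0.05, in either direction, as did 36.2% of all genes. The 10 were Cdc25b, Cdc20, Racgap1, Espl1, Aurkb, Foxm1, Bub1b, Ccnb2, Cdk1 and Ccna2. The median of all 48 members was 0.19 (1.14-fold), beside -0.03 for all genes, and no member reached a log2 fold change of 1 in size (1.93% and 0.812% of genes higher and lower). Both FAK-R454 samples lay above all FAK KO samples in 30 members (25.4% of genes) and below in 1 (29.6%). The number called higher moved with single samples: it was 17 without FAK KO replicate 2, 3 without FAK KO replicate 3, 0 without FAK-R454 replicate 1 and 1 without FAK-R454 replicate 2. Where 1 FAK-R454 sample was left, it was assumed to vary like the FAK KO samples.

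Between FAK-WT and FAK-R454, which differ in kinase activity and also in Ptk2 mRNA, 0 of 47 members were called in either direction by limma with all samples, against 3.38% higher and 4.44% lower of all 11782 genes. Unadjusted p was under 0.05 for 3 members, and for 26.9% of all genes. All FAK-WT samples lay above both FAK-R454 samples in 4 members and below in 1 (16.7% and 31.8% of genes), and a log2 difference of 1 was reached by 0 members (0.696% and 0.747% of genes). The median of the 48 members was 0.16, and it was 0.07 without FAK-WT replicate 1 and 0.11 without FAK-WT replicate 2. Pkmyt1 had the largest value, 0.46 (95% interval 0.06 to 0.86, adjusted p = 0.146). Without FAK-WT replicate 3, 37 members were called higher in FAK-WT and 1 lower (12.8% and 15.3% of genes), with a median of 0.33. The count of members that differed between active and inactive FAK thus rested on that 1 library.

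FAK-WT was set beside KMF to ask how far re-expression restored the parental level. Against KMF, FAK-WT had 0 members called higher by limma and 15 lower (18.2% and 23.5% of 11847 genes), with 22 members at an unadjusted p under 0.05 (for all genes, 50.6%) and a median of -0.35. All FAK-WT samples lay below all KMF samples in 26 members and above in 0 (31.6% and 23.9% of genes), and 0 reached a log2 difference of 1 (3.82% and 2.11% of genes higher and lower). Without FAK-WT replicate 3 there were 2 higher, Kif11 and Incenp, and 18 lower (19.8% and 23.5% of genes), with a median of -0.17. Kif11 and Incenp are on chromosome 19, where tested genes had a median difference 0.33 above that of the other chromosomes, with all samples. The part of this chromosome-wide difference in their values was not tested. The number lower was 24 without FAK-WT replicate 1 and 8 without KMF replicate 1, 6 with each chromosome centred on its own median and 25 in 1 fit of all 5 lines.

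Active β-catenin was compared with the FAK KO clone to ask which genes differ with it in cells that lack FAK. Of 48 members, 46 were called higher in β-catenin ΔGSK and 1 lower, against 23.7% and 34.4% of all 11915 genes. These 46 include Kif18a, tested only because its mean in β-catenin ΔGSK, 1.07 FPKM, passed the filter (0.63 in FAK KO). The call of Kif18a thus rests on the line where it was high. The median was 0.81 (1.75-fold), beside -0.09 for all genes. A log2 fold change of 1 or more was reached by 8 members, Cdc20, Ccnb2, Bub1b, Aurkb, Plk1, Tpx2, Ube2c and Cenpf, with 0 lower (5.13% and 6.99% of genes). In 46 members all samples lay above those of FAK KO and in 1 below (26.9% and 37.3% of genes). Bub3 was not called. Ctnnb1, the β-catenin gene, was at 148, 139.5 and 146 FPKM in FAK KO and at 207, 212 and 223 in β-catenin ΔGSK.

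β-catenin ΔGSK was also set beside KMF, a comparison added after the values were seen. Here 15 of 48 members were called higher and 6 lower, against 25.1% and 31.8% of 11902 genes. The median was 0.08, and it was 0.045 without β-catenin ΔGSK replicate 1. The groups did not overlap in 19 members above and 8 below (28.9% and 35.4% of genes), and 0 members reached a log2 difference of 1 (5.96% and 7.17% of genes). The 15 included Cdc20, Bub1b, Kif11, Tpx2 and Incenp, with log2 differences of 0.87, 0.57, 0.57, 0.56 and 0.55. Kif11 and Incenp are on chromosome 19, where the median difference in this pair was 0.28 above that of the other chromosomes. The 6 lower ones were Pkmyt1 at -0.57, Bub3 at -0.30, Cdc25b at -0.30, Iqgap3 at -0.25, Racgap1 and Nek2. The number lower was 10 without β-catenin ΔGSK replicate 1, 3 without its replicate 2, and 3 without KMF replicate 1 or without KMF replicate 2. With each chromosome centred on its own median it was 1. DNA replication genes had a median of -0.23 in this pair, with 1 of 43 tested genes called higher and 19 lower.

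Among the genes that set mitotic transcription, Foxm1, which activates G2 and M phase genes, was at 10.1, 12.7 and 11.6 FPKM in FAK KO, 19.2, 19.02 and 18.04 in KMF, and 20.7, 21.3 and 23.2 with active β-catenin. FAK-R454 samples were at 14.6 and 14.6, above FAK KO, and FAK-WT samples at 18.4, 17.8 and 12.99. Foxm1 was called higher than in FAK KO in all 4 lines, with log2 fold changes of 0.71 in KMF, 0.92 in β-catenin ΔGSK, 0.50 in FAK-WT and 0.35 in FAK-R454. Mybl2, which acts with DREAM subunits on the same genes, rose by 0.98 in KMF and 1.00 in β-catenin ΔGSK on the log2 scale. It was not called in FAK-WT (4.11, 3.51 and 2.59 FPKM) or in FAK-R454 (2.74 and 2.95), against 2.43, 2.73 and 2.79 in FAK KO. Mybl2 was called higher in FAK-WT once replicate 3 was left out (0.51, adjusted p = 0.0145).

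Of the switch of mitotic entry, all 9 genes were called higher in KMF and in β-catenin ΔGSK, 5 in FAK-WT and 4 in FAK-R454. For this and the other counts by role, the shares of all genes called higher over FAK KO were 23.1% in KMF, 23.7% in β-catenin ΔGSK, 15.6% in FAK-WT (16.7% without replicate 3) and 9.78% in FAK-R454. With replicate 3 left out, 8 were called higher in FAK-WT, all but Wee1. Ccna2, cyclin A2, had the largest change of any member in KMF, with 25.8, 24.3 and 24.5 FPKM against 10.4, 10.6 and 11.5 in FAK KO, a log2 fold change of 1.19 (SE 0.07, adjusted p = 3.16e-06). In FAK-WT, Ccna2 stood at 16.3, 16.6 and 11.4 FPKM, below all KMF samples, with a log2 difference from KMF of -0.77 (adjusted p = 0.00426). Ccna2 is on chromosome 3, where tested genes had a median difference in this pair that was -0.31 from that of the other chromosomes. The part of this in its value was not tested. Ccnb2, cyclin B2, was at 43.8, 40 and 38.96 FPKM with active β-catenin, against 15.97, 16.1 and 16.1 in FAK KO and 30.7, 30.4 and 26.7 in KMF. Ccna2 was at 24.3, 19.8 and 21.3 FPKM there. The log2 fold change of Ccnb2 in β-catenin ΔGSK over FAK KO was 1.35 (SE 0.07, adjusted p = 9.12e-07). FAK-WT samples of Ccnb2 were at 23.4, 24.1 and 15.2 FPKM, so that replicate 3 fell below all FAK KO samples and the gene was not called with all samples.

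The phosphatase Cdc25b, which activates CDK1, had FPKM of 38.8, 36.3 and 34.8 in KMF and 16.8, 17.6 and 18.1 in FAK KO. It showed the largest rise of any member in FAK-R454, at 24.9 and 24 FPKM, a log2 fold change of 0.48 (SE 0.07, adjusted p = 0.00265), and stood at 26.5, 27.1 and 22.6 FPKM in FAK-WT. Pkmyt1 is the membrane kinase that restrains CDK1. Its FPKM was 4.01, 5.21 and 5.33 in FAK KO, 9.75, 9.32 and 6.71 in FAK-WT, 5.898 and 6.41 in FAK-R454, 11.1, 11.3 and 8.59 in KMF and 5.77, 7.34 and 7.75 with active β-catenin. All samples of every other line lay above FAK KO, and β-catenin ΔGSK lay below KMF. With each chromosome centred, the difference of Pkmyt1 between β-catenin ΔGSK and KMF was -0.30 (adjusted p = 0.111) and was not called. Log2 fold changes of Pkmyt1 over FAK KO were 1.08 in KMF (adjusted p = 0.000347), 0.81 in FAK-WT (adjusted p = 0.00598), 0.51 in β-catenin ΔGSK (adjusted p = 0.0149) and 0.35 in FAK-R454 (adjusted p = 0.0994, not called). Wee1, the nuclear counterpart of Pkmyt1, was at 23.8, 24.5 and 25.8 FPKM in FAK KO, 35.2, 33.9 and 26.98 in KMF and 26.3, 25.5 and 29.7 in FAK-WT, where replicate 3 was the highest.

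Of the mitotic kinases, Plk1, which drives centrosome maturation and mitotic entry, was at 16.2, 15.5 and 17.1 FPKM in FAK KO and at 36.3, 35.99 and 39.9 in β-catenin ΔGSK, a log2 fold change of 1.19 (SE 0.07, adjusted p = 2.51e-06). KMF samples were at 31.4, 31.02 and 27.1, between these lines and overlapping neither. In FAK-WT, Plk1 was at 26.9, 24.8 and 18.8 FPKM (log2 fold change 0.51, adjusted p = 0.0128). Nek2, a centrosome kinase, rose by 0.88 in KMF and 0.36 in FAK-WT. Aurka, the spindle-pole kinase, and Plk4, which starts centriole duplication, were called higher in KMF (0.52 and 0.82) and β-catenin ΔGSK (0.68 and 0.55) but not in FAK-WT, where Aurka was at 18.6, 17.6 and 13.2 FPKM against 15.2, 13.99 and 14.8 in FAK KO. All 4 kinases were called higher in FAK-WT without replicate 3. None of the 4 kinases was called in FAK-R454.

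All 4 subunits of the chromosomal passenger complex, which corrects faulty attachments at the kinetochore, were called higher in KMF and β-catenin ΔGSK than in FAK KO. Aurkb, its kinase, was at 11.4, 13.2 and 12.3 FPKM in FAK KO and at 28.3, 29.2 and 30.6 in β-catenin ΔGSK, a log2 fold change of 1.25 (SE 0.08, adjusted p = 2.67e-06). It was at 16.3 and 15.6 FPKM in FAK-R454, where it was the only subunit called (0.38, adjusted p = 0.017). Incenp, the scaffold that holds Aurkb, was at 39.3, 41.1 and 43.4 FPKM with active β-catenin, called higher than the 27.4, 28.03 and 29.1 of KMF, with log2 fold changes over FAK KO of 0.92 and 0.37. In FAK-WT, Aurkb (0.54), Incenp (0.48) and Birc5, which is survivin (0.47), were called higher. Cdca8, which is borealin, was at 9.32, 8.42 and 5.75 FPKM in FAK-WT against 5.27, 5.77 and 5.92 in FAK KO (adjusted p = 0.0594, not called), and without replicate 3 it was called (0.64, adjusted p = 0.00157).

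At the centromere, Cenpa, the histone that marks it, was called higher in FAK-WT (0.56, adjusted p = 0.0119), with 37.9, 38.8 and 26.9 FPKM against 21.8, 24.2 and 23.4 in FAK KO. Cenpe, a kinesin that carries chromosomes to the spindle equator, and Cenpf, a kinetochore protein of G2 cells, were called in KMF (0.93 and 0.71) and β-catenin ΔGSK (0.71 and 1.04) and not in FAK-WT with all samples. Leaving out replicate 3, Cenpf was called there (0.51, adjusted p = 0.00915) and Cenpe was not (adjusted p = 0.0598). Nuf2, Ndc80, Spc24 and Spc25 form the NDC80 complex, which grips the microtubule. They rose by 0.94, 0.89, 0.78 and 0.49 in KMF, and by 0.71, 0.91, 0.95 and 0.74 in β-catenin ΔGSK. Spc24 was at 15.9, 17.9 and 18.2 FPKM in FAK KO and 29.8, 28.2 and 17.9 in FAK-WT. Replicate 3 thus lay within the range of FAK KO, and the log2 fold change of 0.51 (SE 0.17, adjusted p = 0.0444) became 0.74 (adjusted p = 0.000445) without it. FAK-R454 had 20.1 and 20.4 FPKM of Spc24, above every FAK KO sample, with an adjusted p of 0.0799. Spc25 was not called in either re-expressing line, with or without FAK-WT replicate 3. It was at 6.66, 6.03 and 7.301 FPKM in FAK KO, 7.696, 7.02 and 5.83 in FAK-WT and 6.22 and 6.17 in FAK-R454. Of the 4 NDC80 genes, 2 were called higher in FAK-WT with all samples and 3 without replicate 3.

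**Figure D5:**
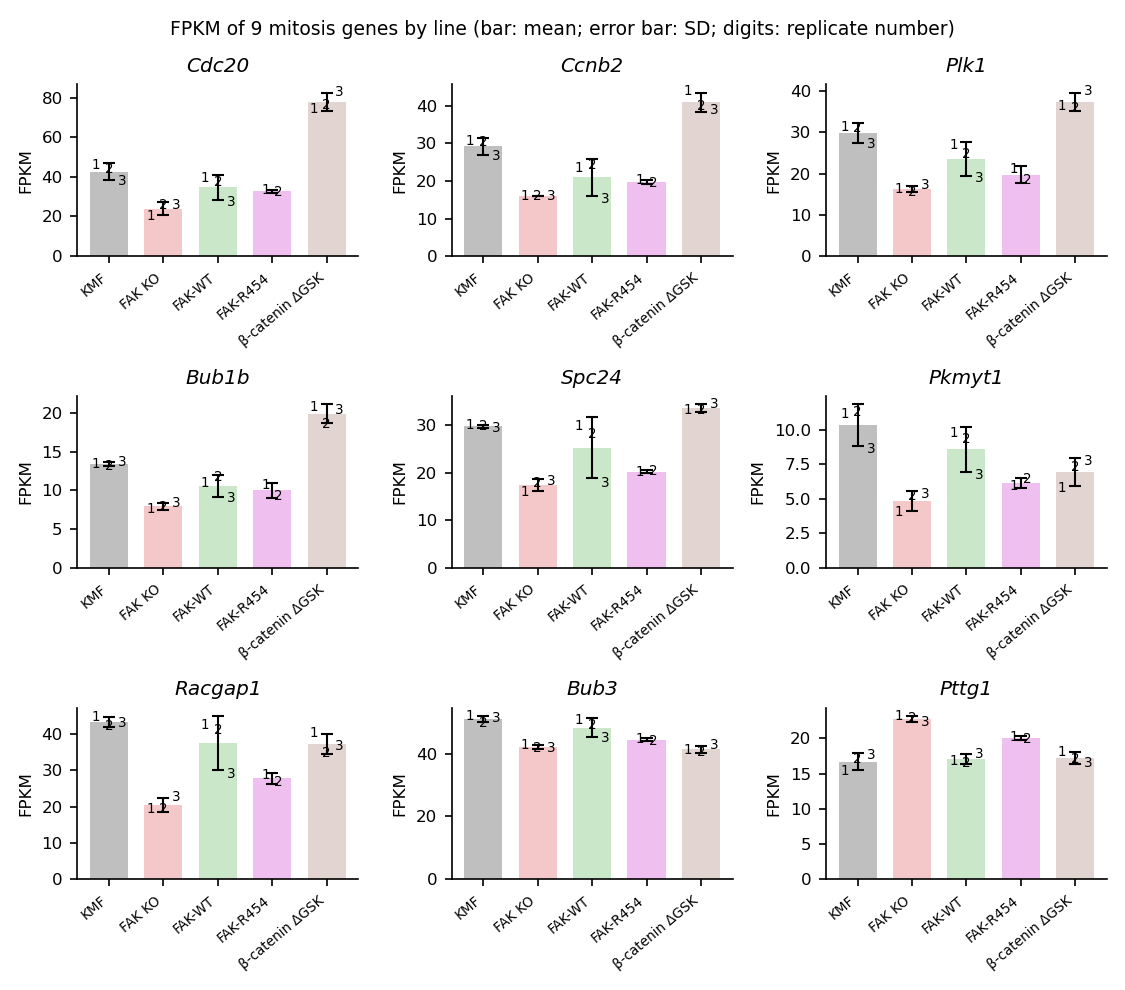
Bars give the mean FPKM of each line, error bars the SD, and digits the samples by replicate number, on axes that start at 0. Cdc20, Ccnb2, Plk1 and Bub1b peak in β-catenin ΔGSK, Pkmyt1 and Racgap1 in KMF, Bub3 in β-catenin ΔGSK is near the FAK KO level, and Pttg1 is highest in FAK KO.

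The members of the spindle checkpoint differed in their pattern. Bub1b, the inhibitor of CDC20 known as BUBR1, was at 7.53, 7.89 and 8.38 FPKM in FAK KO and at 20.9, 18.6 and 20.4 in β-catenin ΔGSK, a log2 fold change of 1.32 (SE 0.08, adjusted p = 2.33e-06). KMF samples of Bub1b were at 13.4, 13.2 and 13.7, and the gene was also called in FAK-WT (0.40) and FAK-R454 (0.33). Bub3, its partner, was at 42.9, 41.8 and 41.8 FPKM in FAK KO and at 41.2, 40.4 and 42.6 with active β-catenin, and these groups overlapped. In KMF, Bub3 was at 51.9, 49.8 and 51.4 FPKM (0.27, adjusted p = 0.0035). Mad2l1, which encodes MAD2, was at 22.2, 22.1 and 23.4 FPKM in KMF, not called against 22.5, 17.7 and 20.8 in FAK KO, and at 35.9, 28.3 and 28.3 in β-catenin ΔGSK (0.59, adjusted p = 0.00269). The kinases Bub1 and Ttk rose in KMF (0.49 and 0.80) and in β-catenin ΔGSK (0.71 and 0.75). Bub1 in FAK-WT, at 3.91, 3.83 and 2.45 FPKM, and in FAK-R454, at 3.34 and 3.14, overlapped the 4.24, 3.07 and 4.22 of FAK KO. Of the 5 checkpoint genes, 2 were called higher in FAK-WT, both with all samples and without replicate 3.

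Anaphase genes held both extremes of the set in β-catenin ΔGSK over FAK KO. Cdc20, the activator of the anaphase-promoting complex, was at 19.99, 25.8 and 25.9 FPKM in FAK KO, 45.9, 44.2 and 37.9 in KMF and 74.1, 76.3 and 83.03 with active β-catenin. The difference between β-catenin ΔGSK and FAK KO, a log2 fold change of 1.71 (SE 0.11, adjusted p = 2.92e-06), was the largest of any member in the 7 comparisons made. Cdc20 was at 39.3, 37.3 and 27.4 FPKM in FAK-WT (0.53, adjusted p = 0.0239) and 33.2 and 32.2 in FAK-R454 (0.46, adjusted p = 0.0272). The ratio of Cdc20 to Bub3 in FPKM was 0.466 to 0.62 in FAK KO, 0.739 to 0.887 in KMF, 0.609 to 0.776 in FAK-WT, 0.73 to 0.742 in FAK-R454 and 1.8 to 1.95 with active β-catenin. Cdc20 thus exceeded Bub3 in 3 of 3 β-catenin ΔGSK samples and in 0 of the other 11. Bub3 is the checkpoint gene that was not called with active β-catenin. The ratio of Cdc20 to Mad2l1, another checkpoint gene, did not set β-catenin ΔGSK apart from KMF. It was 2.06 to 2.94 with active β-catenin, 1.62 to 2.06 in KMF, 1.65 to 1.69 in FAK-WT, 1.6 to 1.72 in FAK-R454 and 0.888 to 1.46 in FAK KO. Ube2c, the ubiquitin-conjugating enzyme of the complex, was at 15.5, 16.3 and 16.8 FPKM in FAK KO, 33.8, 31.1 and 31.6 in KMF (0.98) and 32.5, 33.8 and 36.1 in β-catenin ΔGSK (1.07). In FAK-WT it was not called with all samples (adjusted p = 0.0559) and was called without replicate 3 (0.60, adjusted p = 0.000809).

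Pttg1, which encodes securin, the inhibitor of separase, moved against the rest. Its FPKM was 23.2, 22.9 and 22.3 in FAK KO, 15.3, 17.1 and 17.7 in KMF, 16.7, 16.5 and 17.8 in FAK-WT, 20.3 and 19.9 in FAK-R454, and 18.1, 17.01 and 16.5 with active β-catenin. Every sample of every other line lay below every FAK KO sample. The log2 fold change over FAK KO was -0.45 in KMF (SE 0.07, adjusted p = 0.000957), -0.42 in FAK-WT (SE 0.06, adjusted p = 0.00157), -0.40 in β-catenin ΔGSK (SE 0.07, adjusted p = 0.000921) and -0.18 in FAK-R454 (SE 0.06, adjusted p = 0.0775, not called). Without FAK-WT replicate 3 the FAK-WT value was -0.45. Separase itself, Espl1, was at 3.82, 4.49 and 4.69 FPKM in FAK KO, 7.01, 7.83 and 7.22 in KMF, 7.91, 8.46 and 5.53 in FAK-WT, 5.94 and 5.44 in FAK-R454 and 7.15, 7.95 and 9.05 with active β-catenin. All samples of the other lines lay above FAK KO. With each chromosome centred on its own median, Espl1 was not called in FAK-WT. The ratio of securin to separase mRNA was 5.31 ± 0.685 in FAK KO, 2.27 ± 0.153 in KMF, 2.43 ± 0.692 in FAK-WT, 2.17 ± 0.355 in β-catenin ΔGSK (SD, n = 3 each) and 3.54 ± 0.176 in FAK-R454 (SD, n = 2). That FAK KO samples of this ratio overlapped no other line follows from the values of both genes above and is no further result.

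Of the spindle motors, all 6 genes of the group were called higher in β-catenin ΔGSK, the 5 tested in KMF, and 0 of 5 in FAK-WT or FAK-R454 by limma with all samples. The 6 include Kif18a, which passed the filter of 1 FPKM only through β-catenin ΔGSK. In FAK-WT without replicate 3, 5 of 5 were called higher. Tpx2, which activates Aurora A on the spindle, was at 21.9, 19.9 and 21.02 FPKM with active β-catenin, against 9.83, 9.02 and 9.59 in FAK KO and 15.4, 13.8 and 13.3 in KMF. Kif11, the motor that separates the spindle poles, was at 13.3, 12.9 and 13.01 FPKM in KMF, 11.4, 10.5 and 11.7 in FAK KO and 22.5, 17.6 and 18.4 in β-catenin ΔGSK. In FAK-WT replicates 1 and 2, Kif11 lay above all KMF samples, and its FAK-WT values were 17.5, 15.6 and 11.2. Top2a, topoisomerase II, was at 42.1, 37.2 and 26.7 FPKM in FAK-WT and 27.2, 24.1 and 27.7 in FAK KO.

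Cytokinesis genes were all called higher in KMF and in β-catenin ΔGSK than in FAK KO, and 4 of 7 in FAK-WT, which became 6 without replicate 3. Racgap1, a subunit of centralspindlin at the spindle midzone, was at 19.4, 19.4 and 22.7 FPKM in FAK KO, 44.8, 42.2 and 42.95 in KMF, 42.5, 41.2 and 28.9 in FAK-WT, 28.8 and 26.7 in FAK-R454 and 40.3, 34.8 and 36.6 with active β-catenin. It was the member with the largest rise in FAK-WT, 0.85 (SE 0.14, adjusted p = 0.00292), and even replicate 3 lay above all FAK KO samples. Racgap1 and Espl1 are both on chromosome 15, where 479 tested genes had a median log2 difference between FAK-WT and FAK KO that was 0.39 above that of the other chromosomes. With each chromosome centred on its own median, Racgap1 was at 0.51 (adjusted p = 0.0188) in FAK-WT, behind Pkmyt1 at 0.69 (adjusted p = 0.0128). Espl1 was then at 0.38 (adjusted p = 0.086), and neither Racgap1 nor Espl1 was called in FAK-R454. The part of this chromosome-wide difference in their values was not tested further. Iqgap3, a scaffold protein of dividing cells, was at 4.89, 6.07 and 6.62 FPKM in FAK KO, 12.7, 13.6 and 11.9 in KMF (1.12) and 10.6, 10.3 and 6.4 in FAK-WT (0.60, adjusted p = 0.0372). Ect2, the RhoA activator that binds centralspindlin, was at 12.7, 11.6 and 11.4 FPKM in KMF but 7.75, 7.08 and 5.45 in FAK-WT and 6.16 and 6.38 in FAK-R454, beside 6.86, 5.19 and 6.48 in FAK KO. Its log2 difference between FAK-WT and KMF, -0.82 (SE 0.13, adjusted p = 0.00218), was the largest of any member in that comparison and was -0.67 without replicate 3. Ect2 is on chromosome 3, where the tested genes had a median difference between FAK-WT and KMF that was -0.31 from that of the other chromosomes. With each chromosome centred, Ect2 was at -0.51 (adjusted p = 0.0159), behind Bub1 at -0.53 (adjusted p = 0.0552) and Ttk at -0.52 (adjusted p = 0.022).

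Other genes of the same pathways were counted from fixed lists. In KMF, 8 of 8 condensin genes, 11 of 17 inner kinetochore genes, 7 of 14 further outer kinetochore genes and 19 of 28 other spindle genes were called higher than in FAK KO, and 0, 0, 1 and 2 lower, beside 23.1% and 28.7% of all genes tested. The same lists had 6, 9, 8 and 19 higher and 0, 1, 0 and 2 lower in β-catenin ΔGSK, where 27 of the 28 spindle genes were tested and 23.7% and 34.4% of all genes were called. In FAK-WT they had 1, 4, 1 and 5 higher and 0, 1, 2 and 2 lower, with 27 spindle genes tested, beside 15.6% and 25.2% of all genes. Replicates 1 and 2 alone gave 4, 7, 5 and 14 higher and 0, 1, 2 and 1 lower, beside 16.7% and 22.1%. Cenpm, an inner kinetochore gene, showed the largest rise of its list in both FAK-WT and β-catenin ΔGSK (1.06 and 1.37), with 33.95, 32.6 and 24.4 FPKM in FAK-WT, 34.7, 36.1 and 40.9 with active β-catenin, and 13.2, 15.1 and 14.6 in FAK KO. Of the anaphase-promoting complex, the target of Cdc20, 3 of 16 genes were called higher and 9 lower in β-catenin ΔGSK, with a median of -0.30. In KMF 3 were called higher and 3 lower (median 0.0016), in FAK-WT 3 and 5 (-0.15), or 4 and 5 without replicate 3, and in FAK-R454 1 and 1 (-0.13). Anapc15, a subunit needed to turn over checkpoint complexes, was at 6.88, 6.999 and 5.68 FPKM in FAK KO and 1.95, 2.23 and 2.37 in β-catenin ΔGSK (-1.53, adjusted p = 1.19e-05), and at 3.59, 3.48 and 3.77 in FAK-WT.

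DNA replication genes gave medians of 0.55 in KMF (34 of 43 tested called higher, 0 lower), 0.33 in β-catenin ΔGSK (24 of 42 higher, 1 lower), 0.26 in FAK-WT (13 of 42 higher, 0 lower) and 0.13 in FAK-R454 (7 of 42 higher, 0 lower). The shares of all genes called higher and lower were 23.1% and 28.7% in KMF, 23.7% and 34.4% in β-catenin ΔGSK, 15.6% and 25.2% in FAK-WT, and 9.78% and 9.89% in FAK-R454. Without FAK-WT replicate 3, 28 replication genes were called higher and 0 lower in FAK-WT, with a median of 0.40. Of the cohesin genes, 3 of 11 tested were called higher and 1 lower in KMF, and 4 and 1 in β-catenin ΔGSK. FAK-WT had 1 cohesin gene higher and 3 lower (3 and 1 without replicate 3), and FAK-R454 0 and 2. Of 18 DREAM and E2F genes, 8 were called higher and 4 lower in KMF, and 7 and 2 in β-catenin ΔGSK. These counts were 1 and 2 in FAK-WT (3 and 1 without replicate 3) and 1 and 0 in FAK-R454. Of 18 cell cycle inhibitor and p53 target genes, 15 were tested in KMF, where 1 was called higher and 8 lower. FAK-WT had 2 higher and 7 lower (2 and 6 without replicate 3) and FAK-R454 2 and 7, of 15 tested in each. In β-catenin ΔGSK, 5 of 16 were called higher and 6 lower. Among the 5 was Cdkn1c, which encodes the CDK inhibitor p57, with 1.26, 1.35 and 1.09 FPKM in β-catenin ΔGSK against 0.0344, 0 and 0 in FAK KO. Cdkn1c passed the filter on low values only through β-catenin ΔGSK, so its call rests on the line where it was high. Cdkn1a, which encodes the CDK inhibitor p21, was at 97.9, 112 and 105 FPKM in FAK KO, 108, 105 and 109.6 in KMF, 121, 128 and 118 in FAK-WT, 78.5 and 77.2 in FAK-R454 and 81.3, 84.05 and 69.03 with active β-catenin. All FAK-WT samples of Cdkn1a lay above and all FAK-R454 and β-catenin ΔGSK samples below FAK KO, and KMF overlapped it. Myc was at 36.8 ± 1.14 FPKM in FAK KO, 50.9 ± 6.44 in KMF, 49.1 ± 2.44 in FAK-WT, 62.8 ± 3.66 in β-catenin ΔGSK (SD, n = 3 each) and 37.98 ± 0.297 in FAK-R454 (SD, n = 2), and all FAK-WT samples of Myc, replicate 3 included, lay above FAK KO.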

How the data were processed

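RNA of tumorspheres of 5 lines was sequenced from poly(A)-selected libraries (NEBNext Ultra). FPKM per gene and sample were made and deposited by the authors. The study's methods name TopHat2, whereas the submitters' processing notes list CASAVA 1.8, STAR 2.5, DESeq2 and mm10. Whole fragments recovered from FPKM and gene length (tolerance 0.01) gave the depth.

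Each comparison used limma 3.58.1 (R 4.3.3, eBayes with trend) on log2(FPKM + 0.1) of 2 lines, over genes with a mean FPKM above 1 in at least 1 line, with Benjamini-Hochberg adjustment over all of them and a threshold of 0.05. Fold changes are on the log2(FPKM + 0.1) scale, which understates those of low genes. The script was tested on simulated data with 200 changed genes. No sample was left out of the main values. The alternatives changed the pseudocount, the filter, the scaling, the trend, the samples fitted together, the replicate block, the tool (limma-voom on recovered fragments), chromosome centring and the fold threshold, and left out each sample.

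Members and gene lists were chosen with earlier results of these data known. Any member could be named with its level. Folds were given per comparison for at most the 5 largest changes in each direction, for role groups of up to 5 genes, for Spc24 and Pkmyt1, and for the gene with the largest change in each direction of another list. The comparison of β-catenin ΔGSK with KMF and the hypoxia list, with Vegfa and Ndufa4l2 named from it, were added after values were seen. Promoters were read from RefSeq (GRCm38.p6). One marker gene is not reported here.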

Additional observations from a re-analysis of the deposited data

How the results depend on the processing

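In the comparisons of KMF and β-catenin ΔGSK with FAK KO, each alternative without a fold threshold kept the counts of members called within 1.5 times. Requiring a log2 fold change of at least 1 left 5 members higher and 0 lower in KMF, 8 and 0 in β-catenin ΔGSK, and 0 in either direction in FAK-WT over FAK KO, FAK-R454 over FAK KO, FAK-WT over KMF and β-catenin ΔGSK over KMF. The median of tested members over FAK KO became 0.677 in KMF and 0.74 in β-catenin ΔGSK with a pseudocount of 1, and in β-catenin ΔGSK 0.888 with median-of-ratios scaling and 0.908 with each chromosome centred. Leaving out 1 sample gave medians of 0.717 to 0.801 in KMF.

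For FAK-WT over FAK KO, 11 members were called higher with no filter on low values, and 7 to 39 when 1 sample was left out. For FAK-R454 over FAK KO, 4 were called higher with no filter, with no trend or with 1 fit of all 5 lines, and 0 to 17 higher and 0 to 1 lower when 1 sample was left out. For FAK-WT over FAK-R454, leaving out 1 sample gave 0 to 37 higher and 0 to 1 lower. For FAK-WT over KMF, 25 were called lower in 1 fit of all 5 lines and 6 with chromosomes centred, and leaving out 1 sample gave 8 to 24 lower and 0 to 2 higher. For β-catenin ΔGSK over KMF, 3 were called lower with median-of-ratios scaling or 1 fit of all lines and 1 with chromosomes centred, and 3 to 10 when 1 sample was left out. Its median became 0.126 with median-of-ratios scaling, 0.145 with chromosomes centred, and 0.045 to 0.094 when 1 sample was left out. With chromosomes centred, Nek2 turned from lower to 0.153 (adjusted p = 0.115). The causes were not tested.

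The calls over all genes, higher and lower, went from 1851 and 2986 to 2411 and 2031 with median-of-ratios scaling and 1872 and 1738 with chromosomes centred in FAK-WT over FAK KO. They went from 398 and 523 to 553 and 388 and to 301 and 220 in FAK-WT over FAK-R454, and from 2828 and 4100 to 3443 and 3355 and to 3557 and 3171 in β-catenin ΔGSK over FAK KO. Deviations of same-numbered samples correlated at 0.45, 0.28 and 0.08 between β-catenin ΔGSK and FAK KO, and at -0.25 to 0.14 in the other comparisons, so not every pair passed 0.1 in any of them. With the replicate block, the calls over all genes in β-catenin ΔGSK over FAK KO were 3330 higher and 4823 lower, and the members called higher were 22 in FAK-WT, 8 in FAK-R454, 46 in β-catenin ΔGSK and 44 in KMF over FAK KO. In FAK-WT over FAK-R454 the block gave 36 higher and 1 lower because FAK-WT replicate 3 has no FAK-R454 partner and drops out by construction. At the depth of these libraries, Kif18a, with 85 fragments in its lowest, was the member with the largest relative counting error.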
